A study of Mus musculus with 6 samples.

Results

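Antisense noncoding genes are transcribed from the DNA strand opposite to another gene. The members considered here were the genes of biotype antisense whose mean was at least 10 FPKM (fragments per kilobase of gene length, scaled for the depth of the library) over all 6 testis libraries, and 142 of the 2826 antisense genes (5.02%) in a table of 54532 genes met this rule. The members were thus chosen by their level averaged over both groups, so that a high level is no finding, whereas the difference between the groups was not used directly. In 13 members the mean of 1 group was under 10 FPKM, so that these met the rule only through the group where they were higher. The table came from a study of fecal microbiota transplantation (FMT), which asked whether the gut microbiota of alcohol-drinking mice changes gene expression in the testes of recipients. Control-FMT mice 16, 19 and 21 had received the supernatant of a fecal suspension from control donors, and alcohol-FMT mice 18, 24 and 31 had received that of donors given 10% ethanol, for 8 weeks by the sample records and for 10 weeks by the methods. All 6 recipients were C57BL/6 males that arrived at 3 weeks of age, were kept together for 2 weeks, drank water themselves and were gavaged with 200 μl, 3 times a week, for 10 weeks. Stool came from several donors of each kind, each mouse gave 1 library, and values listed below follow the order of mice 16, 19 and 21 (control-FMT) and then 18, 24 and 31 (alcohol-FMT).

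An antisense RNA may start next to the start of its neighbor and be transcribed away from it (a divergent pair), run into the end of its neighbor (tail to tail), or lie within an intron. Several well-studied antisense RNAs silence imprinted genes or act through the transcription of the opposite strand, and antisense RNA that pairs with its partner forms RNA duplexes, which editing and sensing enzymes recognize. Male germ cells, in particular spermatocytes and round spermatids, transcribe an unusually large share of the noncoding genome, and no function is known for most of the RNAs they make.

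Of the 142 members, 120 shared at least 1 base of gene body with a protein-coding gene on the other strand, and 22 did not. Of these 22, 13 began within 1000 bp of the start of a coding gene that is transcribed away from them, with 15 to 165 bases between the starts. The sequence between the starts is shown for 5 of these divergent pairs, since both genes begin within or beside it. Capitals mark the bases between the annotated starts, lower case marks 20 bases inside the first exon of each gene, and each sequence is on the strand of the antisense gene, so that this gene continues to the right and its neighbor to the left. The windows are those of RefSeq on GRCm38.p6, where the pairs lie at chr11:59948123-59948225 (minus strand, Med9os), chr4:86558309-86558465 (plus strand, Saxo1os), chr11:52000743-52000872 (plus strand, Gm12204), chr11:62551022-62551190 (minus strand, Gm12279) and chr11:64079449-64079503 (plus strand, 2810001G20Rik).
Med9os and Med9: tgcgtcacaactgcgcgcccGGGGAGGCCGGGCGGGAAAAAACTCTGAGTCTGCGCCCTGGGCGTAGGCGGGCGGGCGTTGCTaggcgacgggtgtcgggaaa
Saxo1os and Saxo1: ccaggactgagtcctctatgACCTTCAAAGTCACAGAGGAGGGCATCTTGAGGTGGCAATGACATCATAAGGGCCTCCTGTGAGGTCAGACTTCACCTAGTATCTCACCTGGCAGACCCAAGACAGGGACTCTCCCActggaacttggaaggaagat
Gm12204 and Ube2b: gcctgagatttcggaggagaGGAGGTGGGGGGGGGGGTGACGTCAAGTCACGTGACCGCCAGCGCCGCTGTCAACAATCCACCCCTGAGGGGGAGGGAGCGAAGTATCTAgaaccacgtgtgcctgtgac
Gm12279 and Ubb: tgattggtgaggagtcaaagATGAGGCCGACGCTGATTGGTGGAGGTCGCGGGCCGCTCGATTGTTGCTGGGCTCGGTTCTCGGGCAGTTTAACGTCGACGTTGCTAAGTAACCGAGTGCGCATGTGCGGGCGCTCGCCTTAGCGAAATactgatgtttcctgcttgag
2810001G20Rik and Cox10: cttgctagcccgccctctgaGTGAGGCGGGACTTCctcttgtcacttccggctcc

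For 12 of the 13 divergent pairs a RefSeq window held the stretch, and its GC content ranged from 49.7 to 71.4%, with 0 to 17 CG dinucleotides. The gap between Gm12279 and Ubb, which encodes ubiquitin B, held 17 CG dinucleotides in 129 bases, and that between Saxo1os and Saxo1, whose protein stabilizes the microtubules of the axoneme, held 0 in 117 bases. A start within 1000 bp of an opposite coding start was found for 34 members (23.9%) when overlapping pairs were counted too. In the RefSeq promoter windows of 300 bases, which could be assigned to 63 members, the median GC content was 68.7%, with a median of 30 CG dinucleotides, for the 11 members that start near an opposite start. The other 52 windows had a median GC content of 49.3% and a median of 4.5 CG dinucleotides. Over all 32851 windows the medians were 52.7% and 7, and over the 20120 windows of protein-coding genes they were 57% and 14. TGACGT, the core of the cAMP response element, lay on either strand in 7.94% of the members' windows and in 7.51% of all windows. CCAAT was in 36.5 and 37.4%, the GC box GGGCGG in 30.2 and 35.7%, and TATAAA in 17.5 and 13.6%. TAACGG, the element of MYB factors, was in 5 of the 63 windows (7.94%) and in 2.76% of all windows. In the windows of protein-coding genes the shares were 8.72, 37.9, 47.7, 12.1 and 3.02%, in the order in which the motifs are given. No test was made on these shares.

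Members that overlapped a coding gene could share exon bases with it, and there the RNAs are complementary to each other. The stretches below show the first 30 of the 40 exon bases shared by Wbscr25 and Cldn3 (chr5:134987433-134987462) and by 1700027A15Rik and Tnp1 (chr1:73015725-73015754), read from the GENCODE M21 transcripts (GRCm38), with all bases in capitals since all lie in the exons of both genes.
Wbscr25, minus strand: AAAGACTTTTATTGAAAAATATGAAATGGC
Cldn3, plus strand: GCCATTTCATATTTTTCAATAAAAGTCTTT
1700027A15Rik, plus strand: CATCATCGCCCCGTTTCCTACTTTTCAGGA
Tnp1, minus strand: TCCTGAAAAGTAGGAAACGGGGCGATGATG

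The strand setting of the authors' counting is not given in the sources used here, and the table itself shows what became of fragments in shared exons. Of 90 antisense genes with at least 95% of their exon bases inside exons of opposite coding genes, 85 were at 0 FPKM in all 6 libraries, against 262 of 1233 antisense genes with no shared exon base. For 22 of the 90, an even spread of the opposite gene's fragments over its exons would have given at least 10 FPKM, and all 22 were at 0. Coding genes followed the same pattern: 45 of 50 with at least 95% of their exon bases in exons of the other strand were at 0, against 13.3% of 16796 coding genes with none. In nearly all genes covered this far, fragments in exons shared between strands were thus credited to neither gene, while the length in the FPKM is that of the whole gene. Under this counting the level of a member with shared exons comes from its unshared bases, and fragments from an opposite intron that fall on an antisense exon cannot be told apart from those of the antisense RNA. Of the members, 77 shared no exon base with an opposite coding gene, 65 shared some, and 4 shared more than 50% (Gm12523, 4930403D09Rik, Gm15756 and Gm26787).

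**Figure D1:**
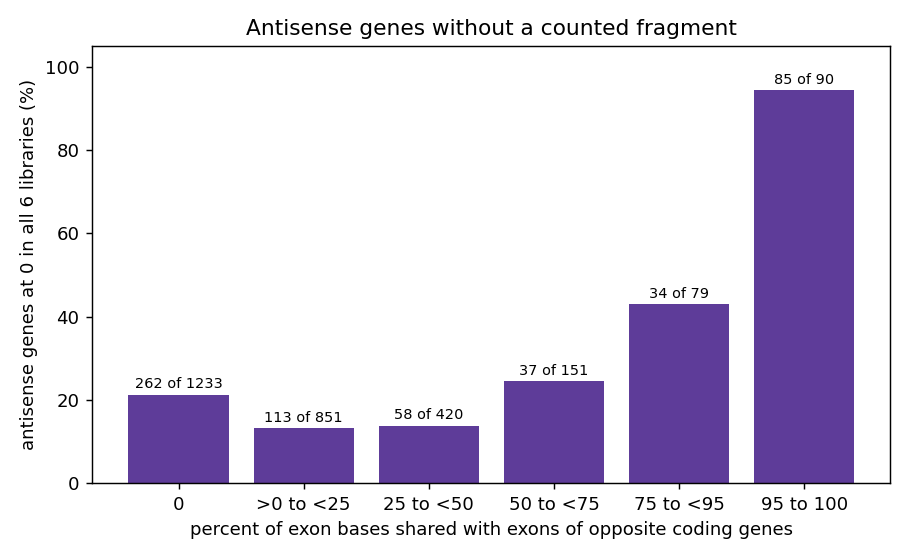
Share of antisense genes at 0 FPKM in all 6 libraries (y axis, percent) by the percent of their exon bases that lie in exons of opposite coding genes (x axis), with the number at 0 and the number of genes above each bar. The share was 21.2% with no shared base and 94.4% where at least 95% was shared.

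The libraries held 16504096 to 18633124 fragments in genes, and the members took 0.386 to 0.441% of these, with 35 to 6303 fragments for a member in a library. Marker genes of the labelled tissue were present in all libraries, with summed levels of 15144 to 22903 FPKM for 5 elongating spermatid genes and 649 to 745 FPKM for 5 round spermatid genes, and 4 epididymis genes summed to at most 0.341 FPKM. Summed macrophage markers (4 genes) were 17.3 to 19.8 FPKM in the control-FMT group and 15.3 to 15.9 FPKM in the alcohol-FMT group, and summed round spermatid markers were 649 to 699 and 700 to 745 FPKM, without overlap between the groups in either list. Each separation rested on 1 gene: without Cd74 the macrophage sums were 5.34 to 5.90 and 4.84 to 5.49 FPKM, and without Tssk2 the round spermatid sums were 331 to 369 and 339 to 362 FPKM, with overlap in both. The sums of the other lists, of 9 looked up, overlapped between the groups. Red blood cell genes did so narrowly, at 14.19 to 17.55 and 7.82 to 14.20 FPKM, and Leydig cell genes were at 369 to 469 and 281 to 414 FPKM. In RNA of whole testis, fewer cells of a type and less RNA per cell cannot be told apart, and the part of these markers in the values of the members was not tested.

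Most members were only moderately abundant. The mean level over the 6 libraries had a median of 16.9 FPKM and reached 155 FPKM, 85 members (59.9%) lay between 10 and 20 FPKM, and 11 were at 50 FPKM or more. Just inside the rule were Gm26787 (10.1 FPKM), 4921534H16Rik (10.0 FPKM) and 4930563I02Rik (10.0 FPKM), and just outside it were 4933430L12Rik (9.99 FPKM), Gm10634 (9.99 FPKM) and 4933431G14Rik (9.80 FPKM). The members were short, from 217 to 6259 bases of exon with a median of 860.5, whereas all 15206 genes tested had a median length of 3039.5 bases, and 12 members consisted of a single exon block. They lay on all autosomes except chromosomes 16 and 18, and chromosome 4 held the largest number (18 members). No member was on the X chromosome, where 45 antisense genes are annotated and the highest reached 2.92 FPKM. Of the coding genes, 101 of 948 on the X chromosome and 4678 of 22046 in all had a mean of at least 10 FPKM.

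The antisense RNAs best known from other tissues were not among the members. Of the 17 names looked up, Nespas, which is transcribed across the imprinted Gnas locus, was at 1.18 FPKM and Wt1os, opposite the gene of the transcription factor WT1, at 1.01 FPKM. Airn and Kcnq1ot1, the silencing RNAs of the Igf2r and Kcnq1 imprinted domains, were at 0.0574 and 0.118 FPKM, and Tsix, the antisense RNA of Xist, was listed at 0 in every library. Gas5, which is annotated as a processed transcript and not as antisense, was at 4.97 FPKM. Sox2ot, Snhg14, Six3os1 and Hoxa11os are likewise annotated as processed transcripts, and Hotair, Pantr1 and Hottip as lincRNA. By the rule on biotype, these and Gas5 could not be members at any level.

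Gm11837 had the highest level of the members (chr4:14929908-14953030, plus strand, 1012 bases of exon). Its levels were 145, 154 and 161 FPKM in the control-FMT group and 173, 147 and 152 FPKM in the alcohol-FMT group, and the groups overlapped. Necab1, which encodes a neuronal calcium-binding protein and meets Gm11837 tail to tail over 786 bp, was at 0.0919 FPKM. The FPKM assigned to Gm11837 was thus 1686 times that assigned to Necab1. The 410 exon bases shared with Necab1 make up 40.5% of Gm11837, and under the counting described above its level would be understated.

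Wbscr25 (chr5:134987433-135001350, minus strand) was second, at 137, 166 and 144 FPKM and at 134, 145 and 148 FPKM, again with overlap. Its neighbor Cldn3, which encodes the tight junction protein claudin-3, overlaps it only in the 40 bases shown above and was at 46.6 FPKM.

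1700027A15Rik (chr1:72984844-73025507, plus strand) was next and varied most between mice of a group among the 10 highest members. It was at 132, 110.4 and 103 FPKM in the control-FMT group and at 85.8, 178 and 182 FPKM in the alcohol-FMT group. Tnp1, which lies inside it on the other strand and encodes transition protein 1, a protein that replaces histones in elongating spermatids, was at 1749, 932 and 760 FPKM and at 654, 2248 and 2849 FPKM. The 6 libraries fell in the same order for both genes, lowest in alcohol-FMT mouse 18 and highest in alcohol-FMT mouse 31, and Pearson's r of log2(FPKM + 1) was 0.98 over the 6 libraries. The exon bases that 1700027A15Rik shares with Tnp1 make up 2.87% of its length, and an even spread of Tnp1 fragments over them would amount to 43.9 FPKM. Under the counting described above, fragments in these shared bases would be credited to neither gene. Whether fragments of Tnp1 contribute to the level of 1700027A15Rik was not tested.

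The next members lay within introns of coding genes that were far less abundant. 1700108J01Rik was at 113, 117 and 112 FPKM and at 89.0, 132 and 135 FPKM, inside Clybl, which encodes a mitochondrial lyase and was at 1.35 FPKM. These levels moved against each other over the libraries (r = −0.87, 6 libraries), a description that rests on few points. 4930589P08Rik was at 96.0, 76.2 and 85.7 FPKM and at 86.9, 104 and 109 FPKM, inside Camta1, a calmodulin-binding transcription activator at 1.85 FPKM. 1700019G24Rik was at 75.6, 66.0 and 61.6 FPKM and at 47.9, 74.5 and 74.0 FPKM, inside Dync1i1, a dynein intermediate chain at 2.95 FPKM. In each of these 3 antisense genes the levels of the groups overlapped, and in 1700108J01Rik and 1700019G24Rik alcohol-FMT mouse 18 was the lowest of all 6. Gm16226, inside Rasgef1b, a Ras-family exchange factor at 0.848 FPKM, was at 52.6, 50.8 and 49.4 FPKM and at 55.3, 64.5 and 55.5 FPKM, without overlap.

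The remaining members of the 10 highest had a neighbor above 40 FPKM. Med9os was at 86.6, 78.4 and 75.5 FPKM and at 79.8, 94.9 and 93.0 FPKM, and Med9, a subunit of the Mediator complex that starts 63 bases away in the other direction, had a mean of 44.5 FPKM. 2610318M16Rik had levels of 82.5, 86.8 and 80.2 FPKM and of 76.8, 82.9 and 88.3 FPKM, inside Oit1, which was at 41.2 FPKM. Gm42918 overlaps Trafd1, a zinc finger gene of innate immune feedback, head to head over 111 bp. Gm42918 was at 61.6, 65.0 and 62.0 FPKM and at 75.7, 66.4 and 71.8 FPKM, without overlap between the groups, while Trafd1 had a mean of 65.3 FPKM. Trafd1 and Gm42918 were thus close to equal in level, with a ratio of 1.03.

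**Figure D2:**
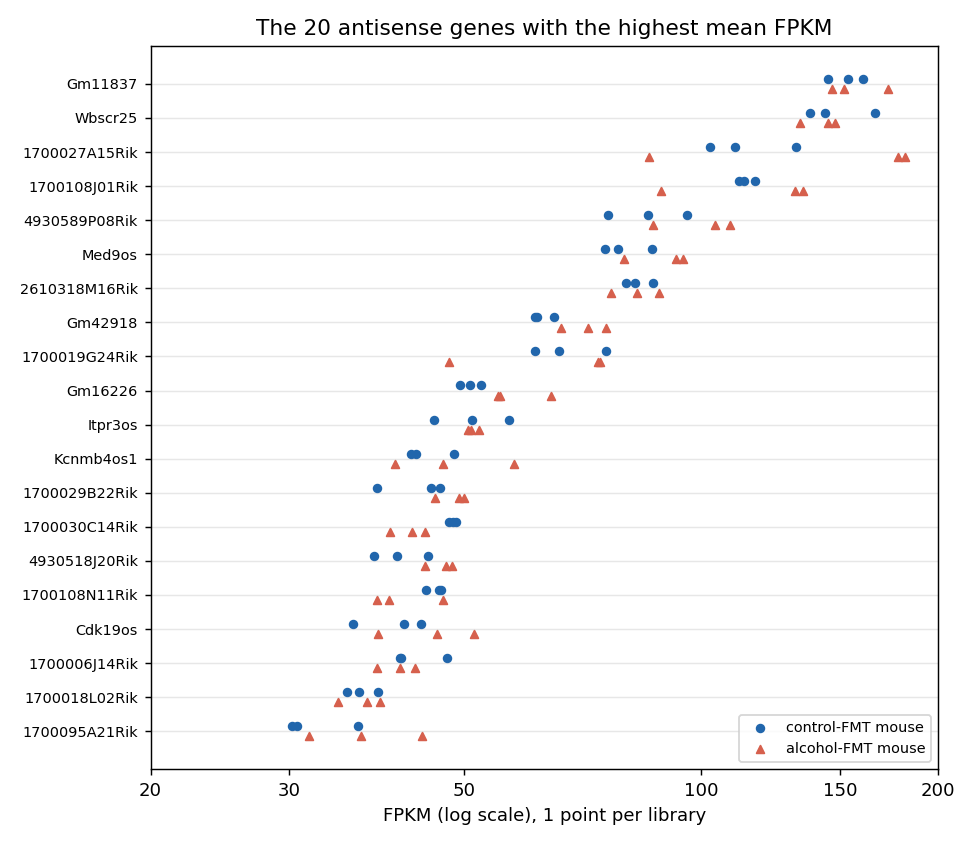
FPKM (x axis, log scale) of the 20 members with the highest mean, 1 row per gene, with 1 point for each control-FMT mouse (circles) and each alcohol-FMT mouse (triangles). Gm11837 lay at 145 to 173 FPKM in all libraries, while 1700027A15Rik spanned 85.8 to 182 FPKM within the alcohol-FMT group.

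The antisense genes whose levels followed those of the 3 highest members most closely over the 6 libraries, among the 687 antisense genes tested, were Gm15908 for Gm11837 (r = 0.99), Gm26555 for Wbscr25 (r = 0.95) and 1700101I19Rik for 1700027A15Rik (r = 0.99). These were followed by Gm45488 and Gm37571 for Gm11837 (both r = 0.96), Gm38037 and Gm17094 for Wbscr25 (r = 0.94 and 0.93), and 1700124L16Rik and Frs3os for 1700027A15Rik (r = 0.98 and 0.97). With 6 libraries and 687 genes searched, these values only describe the pattern.

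The 120 overlapping members formed 126 pairs with 126 coding genes. In 74 pairs the antisense gene lay inside the coding gene, 32 pairs were head to head, 16 were tail to tail, and in 4 the coding gene lay inside the antisense gene. The antisense gene was more abundant per length than its coding gene in 102 of the 126 pairs and more than 10-fold in 49, which the minimum of 10 FPKM for the antisense gene favors. The coding genes had a median of 4.44 FPKM, 33 were under 1 FPKM and 40 were at 10 FPKM or more. By layout, the median of the coding genes was 2.86 FPKM around nested antisense genes, 6.71 FPKM head to head and 2.15 FPKM tail to tail.

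The pairs with the highest ratios paired an antisense gene with a coding gene to which almost no fragments were assigned. Hoxd3os1 (chr2:74703248-74716130, minus strand) in the Hoxd cluster of body-axis transcription factors was at 33.6, 35.9 and 33.9 FPKM and at 27.6, 32.0 and 32.6 FPKM. It overlaps 3 Hoxd genes. Hoxd3 and Hoxd4, which meet Hoxd3os1 head to head over 4204 and 4202 bp, had means of 0.0200 and 0.00385 FPKM. Hoxd8, which lies inside Hoxd3os1 and shares no exon base with it, was expressed at 17.7, 19.5 and 18.2 FPKM and at 16.5, 16.8 and 17.8 FPKM. Further pairs with high ratios were 1700036G14Rik with Gm37240 (13.9 and 0.00415 FPKM), Gm11837 with Necab1, and 4930535L15Rik with Gm20662 (10.2 and 0.0197 FPKM). Hoxd3 and Hoxd4 overlap each other on the plus strand, and Gm20662 overlaps the coding gene Cdhr4 there. How fragments in exons shared on the same strand were counted was not tested, so the levels of these genes may be understated.

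At the other end, the level of 1700027A15Rik was 0.0860 of that of Tnp1. Stk33, a serine/threonine kinase, was at 127 FPKM against 16.1 FPKM for 1700095J03Rik, and Lpcat2b, an acyltransferase gene, at 94.0 FPKM against 12.0 FPKM for Gm17202, both head to head. Azin2, the antizyme inhibitor of polyamine metabolism, was at 69.4 FPKM around Gm15904 (14.2 FPKM), and Mapre3, a protein of growing microtubule ends, at 39.7 FPKM around Gm15461 (12.3 FPKM). An even spread of the opposite gene's fragments over the shared exon bases would exceed the antisense gene's own level in 2 members, Gm12523 (11.8 FPKM, opposite Sort1) and 1700095J03Rik, and would exceed 50% of it in 5. Under the counting described above, such fragments would be credited to neither gene.

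**Figure D3:**
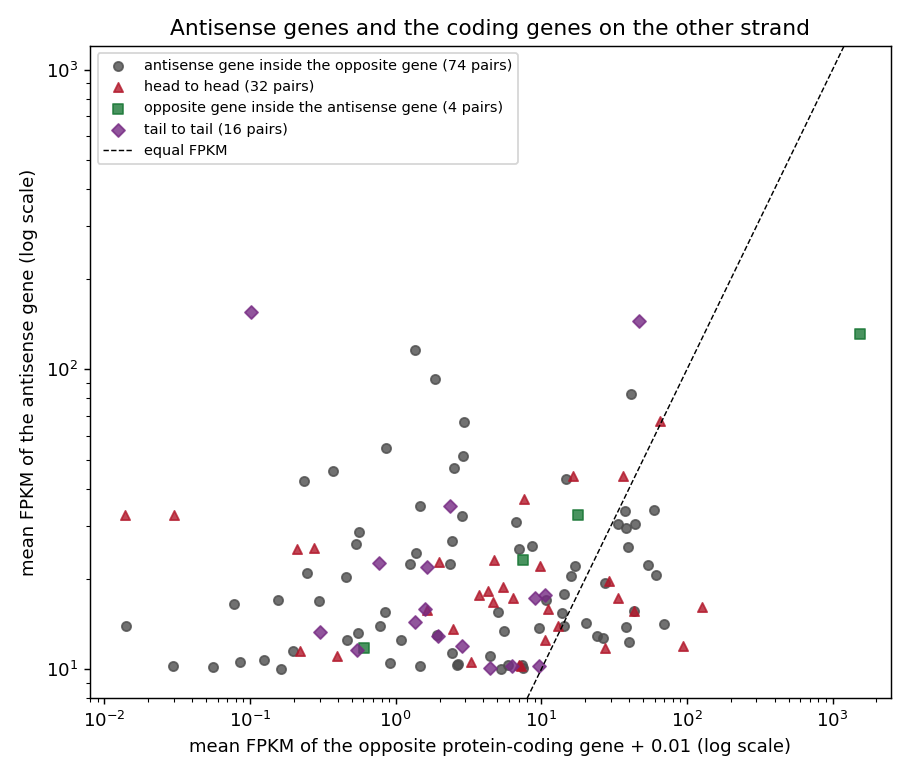
Mean FPKM of the antisense gene (y axis, log scale, from 10 FPKM by the rule) against that of the coding gene on the other strand with 0.01 added (x axis, log scale), 1 point for each of the 126 pairs, with the layout shown by symbol. In 102 pairs the point lies to the left of the dashed line of equal FPKM, and Tnp1 stands alone at the right at 1532 FPKM.

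Among the 13 divergent neighbors of members without overlap, 11 were at 10 FPKM or more, with Ubb at 1012 FPKM, Cdrt4 at 235 FPKM and Spaca3, a sperm acrosome protein, at 122 FPKM. Their antisense partners Gm12279, Cdrt4os2 and 4930507D10Rik were at 11.4, 15.3 and 11.3 FPKM. Only Med9os, 4930592C13Rik, Etaa1os and 2810001G20Rik of the 13 were above their neighbor. Etaa1os had 11.3 FPKM against 1.89 FPKM for Etaa1, which encodes an activator of the ATR kinase.

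Between the groups, the members as a whole were shifted slightly upward in the alcohol-FMT group and no member passed the test. The log2 fold changes, taken on the log2(FPKM + 1) scale, which understates changes of low genes, ran from −0.45 to 0.65 with a median of 0.09, against a median of 0.01 over all 15206 genes tested. By limma with Benjamini-Hochberg adjustment over these genes, 0 of the 142 members had an adjusted p under 0.05, and the smallest was 0.54. The background was the same, with 0% of all genes called, and 0 members were called by limma-voom, run on fragments recovered from the FPKM. With an unadjusted p of at most 0.05, 18 members (12.7%) were higher after alcohol-FMT, where 4.93% of all genes tested were, and 3 members (2.11%) were lower, where 2.34% of all genes were. Of the 13 members carried over the minimum by 1 group, 1 was among the higher and 1, 4930535L15Rik, among the lower, and the remaining 129 members had 17 higher and 2 lower. Of the members, 102 (71.8%) had a fold change above 0, against 52.5% of all genes, and in 20 members every alcohol-FMT library was above every control-FMT library (7.76% of all genes), while in 4 every one was below (5.33% of all genes). These p-values measure the spread between mice that received stool from the same set of donors.

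The count of higher members depended on single libraries. Without alcohol-FMT mouse 18 it was 45 (31.7%) and the median log2 fold change 0.12, and in the same fit 12.2% of all genes and 21.7% of all genes under 1 kb were higher. The count was 8 (5.63%) without control-FMT mouse 19, where 2.70% of all genes were higher, 9 (6.34%) without alcohol-FMT mouse 24, where 3.16% were, and 11 (7.75%) without control-FMT mouse 21, where 2.99% were. Without alcohol-FMT mouse 31 the count of lower members was 7 (4.93%), where 2.39% of all genes were lower. The members' median deviation from the 6-library mean was −0.02, −0.07 and −0.04 in the control-FMT group and at −0.04, 0.09 and 0.09 in the alcohol-FMT group, so that mouse 18 lay with the controls. The 545 antisense genes with means of 1 to 10 FPKM deviated by −0.01, −0.03 and −0.03 and by −0.05, 0.08 and 0.07, and the opposite coding genes stayed within 0.02 of 0 in each library.

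**Figure D4:**
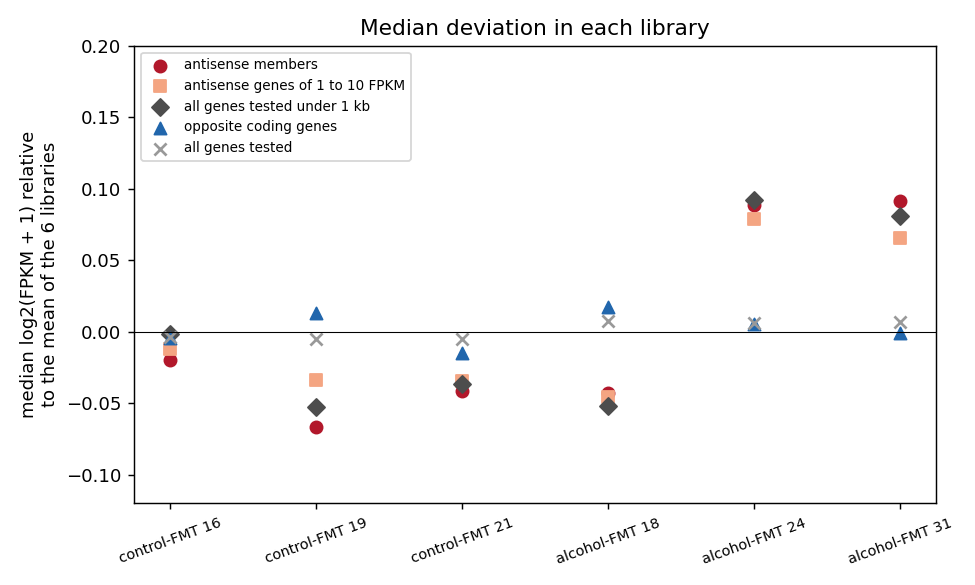
Median of log2(FPKM + 1) relative to the mean of the 6 libraries (y axis) in each library (x axis) for the members, the lower antisense genes, all genes tested under 1 kb, the opposite coding genes and all genes tested. The members and the genes under 1 kb lie at 0.08 to 0.09 in alcohol-FMT mice 24 and 31 and at or below 0 in the other 4 libraries.

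The shift went along with gene length, over all genes tested and over coding genes alone. All genes tested under 1 kb had a median log2 fold change of 0.07, with 9.13% higher and 4.06% lower by the same unadjusted threshold, and their library medians were 0.00, −0.05 and −0.04 in the control-FMT group and −0.05, 0.09 and 0.08 in the alcohol-FMT group. The 80 members under 1 kb had a median of 0.09, with 10 higher and 2 lower. Coding genes under 1 kb (592 genes) had a median of 0.08, with 11.5% higher, and lincRNA genes of any length (1201 genes) had a median of 0.05, with 9.33% higher. In the 42 members of 1 to under 2 kb the median was 0.15, with 8 higher and 0 lower, against a median of 0.05 and 9.52% higher among all genes of that length. The 20 members of 2 kb or more had a median of 0.00, with 0 higher and 1 lower, where all genes of that length had a median of −0.01, with 2.58% higher and 1.91% lower. When each library's trend against gene length was removed, 8 members were higher (5.63%) and 7 lower (4.93%), against 3.41 and 3.38% of all genes, and the median was 0.03.

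**Figure D5:**
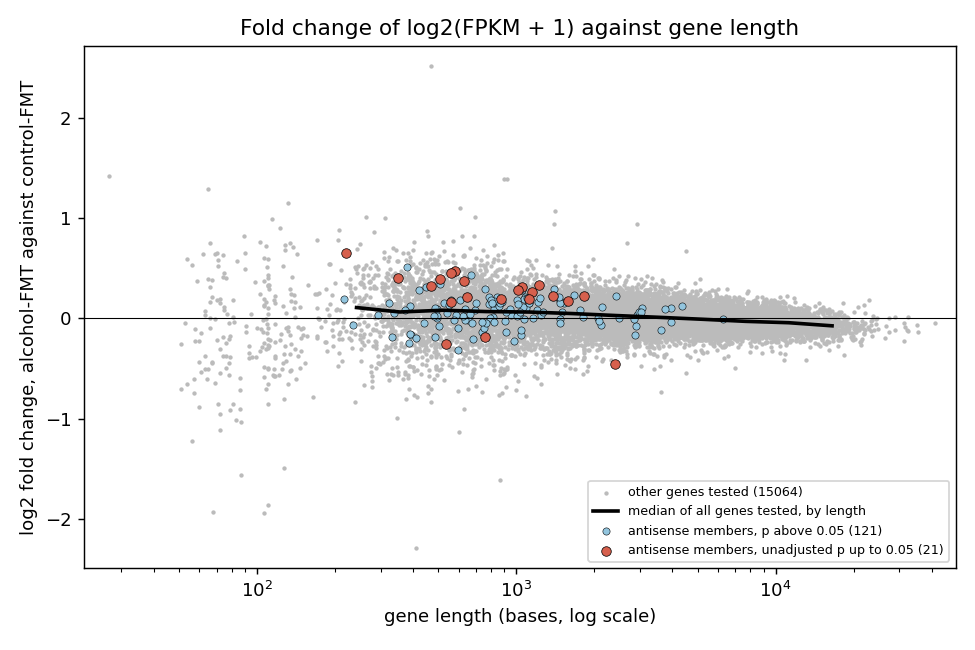
Log2 fold change of the alcohol-FMT against the control-FMT group on the log2(FPKM + 1) scale (y axis) against gene length in bases (x axis, log scale) for all genes tested (gray), with the members in color and the median of all genes by length as a line. The line falls from above 0 for short genes to below 0 for long ones, and the 18 higher and 3 lower members below the unadjusted threshold of 0.05 are the larger points.

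Saxo1os (chr4:86558446-86559804, plus strand), divergent from Saxo1, had the smallest p of the members. It was at 29.5, 31.0 and 28.1 FPKM in the control-FMT group (29.6 ± 1.46 FPKM, SD, n = 3) and at 38.7, 41.4 and 35.9 FPKM in the alcohol-FMT group (38.7 ± 2.75 FPKM, SD, n = 3), with no overlap. The difference of 0.38 on the log2 scale (standard error 0.08) failed the adjustment, with adjusted p = 0.54 from limma. Saxo1 itself was at 37.5, 41.4 and 43.7 FPKM and at 46.4, 42.6 and 36.0 FPKM, with overlapping groups and a log2 fold change of 0.02. The 117 bases between the 2 starts are among those shown above, and Saxo1os shares no exon base with its neighbor.

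Gm16271 had the largest fold change of the members. It was at 11.3, 9.90 and 14.8 FPKM and at 14.8, 20.01 and 23.8 FPKM, higher in all alcohol-FMT mice, though mouse 18 exceeded control-FMT mouse 21 only narrowly. The difference was 0.65 on the log2 scale, with a standard error of 0.19 and adjusted p = 0.59 from limma, and with 220 bases of exon Gm16271 is among the shortest members. It overlaps Stab2, a scavenger receptor of sinusoidal endothelium that clears hyaluronan, without sharing an exon base. Stab2 was at 1.68, 1.73 and 1.66 FPKM and at 1.42, 1.59 and 1.78 FPKM, with overlap and a log2 fold change of −0.05.

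Gm12970 was at 11.4, 10.8 and 10.97 FPKM and at 12.96, 18.0 and 16.5 FPKM (log2 fold change 0.47, adjusted p = 0.57). It lies in Sdc3, which encodes the cell surface proteoglycan syndecan-3 and was at 5.28, 5.28 and 5.34 FPKM and at 4.91, 6.36 and 6.05 FPKM. Usp46os1 was at 15.003, 12.3 and 12.5 FPKM and at 19.3, 18.6 and 15.3 FPKM (log2 fold change 0.39, adjusted p = 0.59), inside the gene of the deubiquitinating enzyme Usp46, whose own log2 fold change was 0.00. AC166164.1, tail to tail with Apobec2, was at 10.1, 9.60 and 10.8 FPKM and at 11.5, 12.99 and 14.6 FPKM (log2 fold change 0.32, adjusted p = 0.60). In these 3 members the groups did not overlap, and none passed the adjusted test.

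Among the members with negative fold changes, Gm14244 (chr2:127691899-127700488, plus strand) had the smallest p. It was at 27.3, 31.7 and 31.4 FPKM in the control-FMT group (30.1 ± 2.44 FPKM, SD, n = 3) and at 22.7, 23.7 and 19.0 FPKM in the alcohol-FMT group (21.8 ± 2.44 FPKM, SD, n = 3), without overlap (log2 fold change −0.45, standard error 0.10, adjusted p = 0.55 from limma). No coding gene overlaps it, and the nearest on the other strand, Mall, ends 3897 bp away and was at 1.59 FPKM. 4930535L15Rik was at 11.3, 11.6 and 10.7 FPKM and at 9.18, 9.52 and 9.04 FPKM, without overlap, with a log2 fold change of −0.25 (adjusted p = 0.59). It met the minimum of 10 FPKM only through the control-FMT group. 1700030C14Rik was at 48.8, 47.8 and 48.5 FPKM and at 40.2, 42.9 and 44.6 FPKM, also without overlap, with a log2 fold change of −0.18 (adjusted p = 0.67). Ccdc34os, inside Ccdc34, overlapped between the groups (log2 fold change −0.22, adjusted p = 0.70), and Hoxd3os1, described above, did not (log2 fold change −0.16, adjusted p = 0.72).

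The coding genes opposite the members had a median log2 fold change of 0.00. Of the 126, 93 had a mean of at least 1 FPKM and could be tested, 0 had an adjusted p under 0.05 by limma or limma-voom, and unadjusted p-values of at most 0.05 were found for 2 higher (2.15%) and 0 lower genes, against 4.93 and 2.34% of all genes. They are long genes, with a median of 5805.5 bases, and of all genes tested of 2 kb or more 2.58% were higher and 1.91% lower. The part of length in the counts of opposite genes was not tested. The 2 higher opposite genes were Immp2l, a mitochondrial inner membrane peptidase subunit, at 12.2, 11.3 and 12.5 FPKM and at 13.9, 14.3 and 19.1 FPKM (log2 fold change 0.35), and Mapre3 at 37.7, 36.5 and 37.8 FPKM and at 43.1, 42.9 and 40.3 FPKM (log2 fold change 0.17). Neither pair of groups overlapped, and the adjusted p was 0.67 for both. Without alcohol-FMT mouse 18 the counts were 10 and 3, where 12.2 and 5.56% of all genes were higher and lower. They were 0 and 0 without control-FMT mouse 16 (4.31 and 2.02% of all genes) or 19 (2.70 and 1.66%). Without control-FMT mouse 21 (2.99 and 1.47%) or alcohol-FMT mouse 24 (3.16 and 2.03%) they were 1 and 0. Without alcohol-FMT mouse 31 they were 5 and 0, where 3.91 and 2.39% of all genes were higher and lower. Of the 13 divergent neighbors, 1 was higher and 0 were lower by this threshold. That neighbor, 1700001O22Rik, was at 94.8, 95.6 and 88.6 FPKM and at 103, 108 and 116 FPKM (log2 fold change 0.22), and its antisense partner 4930527E20Rik was also higher, with a log2 fold change of 0.41.

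Whether an antisense gene changed relative to its coding gene was tested on the difference of their log2(FPKM + 1) over all 499 pairs of the table with both genes at 1 FPKM or more, of which 93 were pairs of members. None of the member pairs, and 0% of all 499, had an adjusted p under 0.05. With an unadjusted p of at most 0.05, the ratio was higher after alcohol-FMT in 7 member pairs (7.53%) and lower in 2 (2.15%), against 5.01 and 2.40% of all pairs, and the median change of the ratio was 0.04 on the log2 scale. The pair with the smallest p was Gm16271 with Stab2 (0.71, standard error 0.19, adjusted p = 0.41 from limma). Then followed Gm15904 with Azin2 (−0.44), Gm12970 with Sdc3 (0.37), 4930535L15Rik with Cdhr4, a cadherin-related gene (−0.41), and Usp46os1 with Usp46 (0.39), all with an adjusted p of 0.65. Of these, 4930535L15Rik met the minimum of 10 FPKM only through the control-FMT group, where it was higher. In the pair of Gm15904 and Azin2, the antisense gene was at 15.7, 15.7 and 13.3 FPKM and at 8.65, 17.2 and 14.4 FPKM, and Azin2 at 67.9, 61.5 and 57.8 FPKM and at 53.7, 90.2 and 85.3 FPKM, so that both were lowest in alcohol-FMT mouse 18 and the groups overlapped. Without alcohol-FMT mouse 18 the ratio counts were 18 and 5 with a median of 0.15, where 13.2 and 3.61% of all pairs were called. Without control-FMT mouse 19 they were 1 and 0 (1.8 and 1.8% of all pairs). Without control-FMT mouse 21 they were 2 and 2 (2.4 and 2% of all pairs), and without alcohol-FMT mouse 24 they were 1 and 1 (1.4 and 2.4%).

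Within pairs, the levels of both genes moved together over the libraries about as often as they moved apart. Pearson's r over the 6 libraries was above 0 in 46 of the 93 pairs, with a median of 0.00. Both genes had a positive fold change in 34 pairs and both a negative one in 12, while in 31 it was positive for the antisense gene alone and in 16 for the coding gene alone. By layout, the median r was 0.03 in nested, −0.08 in head to head and −0.07 in tail to tail pairs. In the 3 tested pairs with the coding gene inside the antisense gene it was 0.86, among them 1700027A15Rik with Tnp1 and Hoxd3os1 with Hoxd8 (r = 0.86).

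RNA duplexes of both strands are bound, edited, cut and sensed by a known set of proteins, for which 40 genes were looked up. Of these, 29 had a mean of at least 1 FPKM, and by the unadjusted threshold of 0.05 none was higher after alcohol-FMT (4.93% of all genes) and 1, or 3.45%, was lower (2.34% of all genes), with a median log2 fold change of −0.03 and with 0 genes at an adjusted p under 0.05. The 1 was Mavs, the mitochondrial adaptor of the RNA sensors, at 3.76, 2.99 and 3.23 FPKM and at 2.64, 2.73 and 2.25 FPKM (log2 fold change −0.29, adjusted p = 0.67). Ago2, the slicing Argonaute protein, was at 2.18, 2.46 and 2.27 FPKM and at 2.04, 1.84 and 1.85 FPKM (log2 fold change −0.18), and Prkra and Xrn1, a partner of Dicer and a 5′ exonuclease, had log2 fold changes of −0.15 and −0.14. In 4 of the 29 genes tested (13.8%) every alcohol-FMT library was below every control-FMT library, against 5.33% of all genes. In 1 (3.45%) every one was above, against 7.76% of all genes. Of the RNA sensors, Ifih1, Ddx58 and Tlr3 were at 0.219, 0.840 and 0.256 FPKM and so below the level of testing. Dhx58 and Eif2ak2, other sensors of the list, were tested, at 15.5 and 3.22 FPKM, with log2 fold changes of 0.05 and −0.10. Adad1, a germ cell protein related to the RNA-editing enzymes, had a mean of 88.4 FPKM, while the editing enzyme Adar itself was at 1.02 FPKM.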

How the data were processed

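RNA of the testes of 6 mice was sequenced by the authors from Illumina TruSeq RNA libraries, 1 per mouse. The paper's methods name TopHat2 as the aligner, whereas HISAT2 2.0.5, mm10 and mm8 are listed in the submitters' processing notes, and the counting tool and its strand setting are not given in the sources used here. The authors deposited FPKM values for each mouse with the length, biotype, strand and position of each gene, and all 6 value columns were used. FPKM times gene length was a whole multiple of 1 step per library in 100% of values, to a tolerance of 0.01, which gave the fragments. The authors tested genes with DESeq2. Since the deposited unit is FPKM, the main test here was limma 3.58.1 (R 4.3.3) with a mean-variance trend on log2(FPKM + 1), two-sided, with limma-voom on the fragments as an alternative, for the 15206 genes with a mean of at least 1 FPKM, without covariates in 3 against 3 libraries and with p-values adjusted by Benjamini-Hochberg. P-values measure the spread between these mice. Gene positions and lengths of all 142 members equal those of GENCODE M21 (GRCm38), from which exons were taken. Opposite genes are protein-coding genes on the other strand that share at least 1 base of gene body. RefSeq promoter windows (250 bases before to 50 after a start) matched 82 members by symbol, and 63 with a start within 100 bp were used. The tests were tried on simulated data before use. Tables were handled with pandas 2.3.3 and NumPy 2.4.6 in Python 3.11.15.

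The members and gene lists were chosen with earlier results of these data known. The genes named were the 10 highest members, the 5 higher and 5 lower with the smallest p, the 3 on each side of the minimum of 10 FPKM, the opposite genes of these, the 5 pairs with the smallest p and the 5 with the highest and the lowest ratio of levels, up to 4 genes of the list for RNA duplexes, and the 3 antisense genes most like each of the 3 highest members. The divergent pairs, the textbook RNAs, the RNA sensors, Adad1, Adar, Immp2l, Sort1, Gm12523 and the other members with more than 50% shared exon were named after their values were seen. The alternatives were a pseudocount of 0.1, no filter, a filter of 10 fragments in 3 libraries, library totals, limma-voom, removal of the trend against gene length, members from 5 or 20 FPKM, an overlap of 100 bases, and leaving out each library.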

Additional observations from a re-analysis of the deposited data

How the results depend on the processing

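In each alternative run, 0 members, 0 opposite genes and 0 pairs of members had an adjusted p under 0.05. Single counts moved. With library totals 11 members (7.75%) were higher at an unadjusted p up to 0.05, against 2.95% of all genes. With the length trend removed 8 (5.63%) were higher and 7 (4.93%) lower, against 3.41 and 3.38% of all genes. By limma-voom 13 (9.15%) were higher and 1 (0.704%) lower, against 4.35 and 2.97%. From 5 FPKM 29 of 266 were higher and 6 lower, and from 20 FPKM 8 of 57 were higher. In the main fit 4.93% of all genes were higher and 2.34% lower. Of the 77 members with no shared exon base, an alternative chosen after seeing the data, 9 (11.7%) were higher, against 4.93% of all genes. Of the 129 members with at least 10 FPKM in each group, also chosen after seeing the data, 17 were higher and 2 lower. Opposite genes lower numbered 1 without a filter, with the fragment filter, by limma-voom and with the length trend removed. In these fits 2.54, 2.88, 2.97 and 3.38% of all genes were lower. With library totals 1 opposite gene was higher and 2 were lower, against 2.95 and 3.39% of all genes. The median log2 fold change of the opposite genes was −0.023 with library totals and 0.020 with the length trend removed. Pairs with a higher or lower ratio numbered 3 and 4 with the length trend removed, where 1.6 and 4.01% of all pairs were called. Leaving out 1 library gave 8 to 45 members higher and 2 to 7 lower, with medians of 0.059 to 0.12. In these fits 2.70 to 12.2% of all genes were higher and 1.47 to 5.56% lower. For opposite genes leaving out 1 library gave 0 to 10 higher, 0 to 3 lower and medians of −0.0032 to 0.031. For ratios it gave 1 to 18 higher, 0 to 5 lower and medians of 0.0047 to 0.15. Of all pairs, 1.4 to 13.2% were then higher and 1.8 to 3.61% lower. Directions turned in 11 of 240 values of named members, all with small fold changes. With the length trend removed these were Gm11837 (−0.034) and 1700108J01Rik (−0.046), and leaving out 1 library gave −0.036 to 0.081 for Gm11837, −0.12 to 0.015 for Wbscr25, −0.076 to 0.22 for 1700108J01Rik, −0.059 to 0.041 for 2610318M16Rik and −0.18 to 0.14 for 1700019G24Rik. The cause of these moves was not tested. No paired analysis was possible because the mouse numbers of the groups (16, 19 and 21, and 18, 24 and 31) have none in common. The members' low fragment counts, from 35 in a library, limit the precision of the lowest.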
